A study of Ovis aries with 8 samples.

Results

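The adipogenic transcription factors are the DNA-binding proteins that turn a precursor into a fat cell and keep its lipid genes on. They were taken here as the 10 genes PPARG, CEBPA, CEBPB, CEBPD, RXRA, NR1H3, SREBF1, EBF1, KLF9 and MLXIPL, found by the gene symbol that the platform annotation gives each probe set. The array measured 8 of the 10 genes on 16 of the 24016 probe sets tested. EBF1 and KLF9 had no probe set under these symbols and have no value here. PPARG, CEBPA and RXRA were each read by 1 probe set, and the other 5 genes by several. For a gene with several, the probe set with the highest mean over the 8 arrays was taken as its main one, here called the brightest.

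RNA came from perirenal adipose tissue (kidney fat) of male lambs of 12 weeks from a Dorset/Suffolk/Rambouillet cross. The 4 NmatCpat lambs (Callipyge) carried the Callipyge allele from the sire and a normal allele from the dam, the combination that gives the muscular, lean phenotype. The 4 NmatNpat lambs carried the normal allele on both sides. Each lamb gave 1 array. The chip was designed on cattle sequence, so a sheep transcript that differs from it may read low, and levels are set side by side only within a probe set.

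In textbook accounts of fat cell differentiation, CEBPB and CEBPD respond first to hormones and glucocorticoid and then switch on PPARG and CEBPA, which maintain each other and the mature fat cell. PPARG and NR1H3 are nuclear receptors that bind DNA as dimers with RXRA. SREBF1 and MLXIPL, also known as ChREBP, drive the genes that make fatty acids in response to insulin and glucose. In ruminants the main carbon source for this synthesis is acetate rather than glucose.

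The arrays read as fat. ADIPOQ, the adipocyte hormone adiponectin, lay at 13.00 to 13.29 on the log2 scale in NmatCpat lambs and at 12.81 to 13.18 in NmatNpat lambs, and FABP4, the fat cell's fatty acid carrier, at 13.69 to 13.74 in NmatCpat lambs and 13.63 to 13.73 in NmatNpat lambs. Over the 9 adipocyte markers measured of 10 listed, the summed deposited intensity ran from 46277 to 56622 in NmatCpat lambs and from 49582 to 52760 in NmatNpat lambs (exact permutation test, two-sided, p = 0.629). The median intensity of an array was 65.9 to 71.7 in NmatCpat lambs and 65.3 to 72.6 in NmatNpat lambs, and the correlation between arrays ran from 0.891 to 0.923. The arrays of 2 lambs stood apart on marker lists of other tissues. On the array of NmatCpat animal 4 the 9 skeletal muscle markers lay on average 1.56 log2 units above their means over the arrays, against -0.76 to 0.13 on the others. Of these markers 7 were highest there, but CKM was at its lowest on its brightest probe set. The summed deposited intensity was 6176 on that array, against 4573 to 6838 in NmatNpat lambs. MYH7, with a mean level of 11.80, was by far the brightest marker in that sum. On the array of NmatNpat animal 1 the 9 neuron markers lay 4.83 log2 units above, against -1.08 to 0.42. That lamb was also lowest on the red cell markers, at -0.80 against -0.27 to 0.34 on the other arrays, and on the endothelial markers, at -0.67 against -0.19 to 0.31. The endothelial value rested largely on KDR, a dim marker that read 1.02 on that array and 4.74 to 6.10 on the others.

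No member gene passed the study's thresholds (P of at most 0.05, fold change over 1.5, together called P and fold) on its brightest probe set. Among all 9155 genes 2.91% passed, in either direction. Counted over probe sets, 1 of the 16 passed, a second probe set of CEBPD that was higher in NmatCpat lambs, against 3.93% of the 24016 probe sets tested in either direction and 2.04% in that direction. It was also the only 1 of the 16 with a P of at most 0.05, against 4.66% of all, and the only 1 whose genotypes did not overlap, against 2.74% of all and 1.41% with NmatCpat higher. None had an adjusted p under 0.05 (limma, Benjamini-Hochberg), with the 16 values between 0.983 and 0.990 and the smallest of the whole array at 0.085. The difference, always NmatCpat minus NmatNpat on the log2 scale, was above 0 for 5 of 8 member genes, or for 6 of 8 where arrays were centred on their medians and PPARG changed sign, against 50.7% of all genes. The median over the 8 was 0.14, against 0.0046 over all genes. The 95% interval of a member gene reached 0.58 to either side of its difference at the median, and for 6 of the 8 it left out a 2-fold change in either direction, and for 3, PPARG, NR1H3 and MLXIPL, also a 1.5-fold change. In bulk tissue fewer cells of a type and less RNA per cell cannot be told apart.

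**Figure D1:**
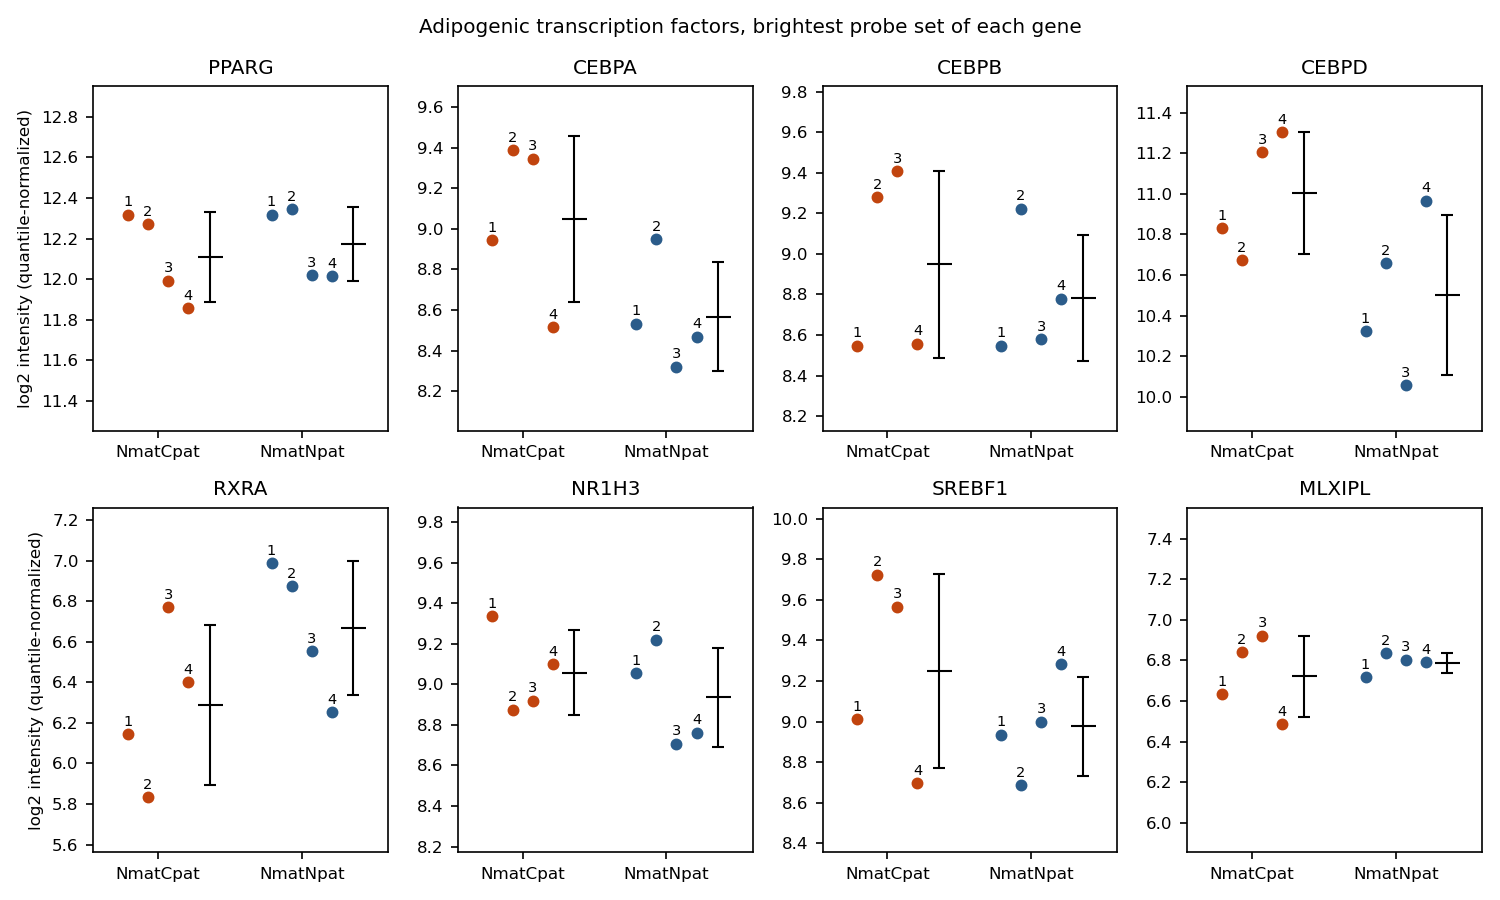
Log2 quantile-normalized intensity of the brightest probe set of each of the 8 measured genes in the 4 NmatCpat lambs (left, orange) and the 4 NmatNpat lambs (right, blue). Numbers above the points are the animal numbers, bars are the mean ± SD, and every panel spans the same number of log2 units. The genotypes overlap in all 8 panels.

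CEBPD, which is induced within hours of a hormonal or glucocorticoid signal, held the largest difference of the members, both over the brightest probe sets and over all 16. The brightest of its 3 probe sets read 10.83, 10.67, 11.21 and 11.31 in NmatCpat animals 1 to 4, against 10.32, 10.66, 10.06 and 10.97 in NmatNpat animals 1 to 4. All 4 NmatCpat lambs lay above 3 of the 4 NmatNpat lambs, and NmatNpat animal 4 lay within the NmatCpat range. The means were 11.00 ± 0.301 in NmatCpat and 10.50 ± 0.396 in NmatNpat lambs (SD, n = 4 each), a difference of 0.50 (SE 0.25, 95% interval -0.09 to 1.09) or 1.42-fold that did not pass (limma P = 0.0846, adjusted p = 0.983, exact permutation test p = 0.114). Without NmatNpat animal 4 the difference was 0.66 and passed both thresholds, and by the mean of its 3 probe sets it was 0.31.

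The second probe set of CEBPD separated the genotypes. It read 8.18, 7.98, 8.09 and 8.35 in NmatCpat animals 1 to 4, and 6.98, 7.70, 7.64 and 7.61 in NmatNpat animals 1 to 4. Every NmatCpat lamb was above every NmatNpat lamb, with NmatNpat animal 1 well below the rest of its group. The means were 8.15 ± 0.156 in NmatCpat and 7.49 ± 0.337 in NmatNpat lambs (SD, n = 4 each), a difference of 0.66 (SE 0.21, 95% interval 0.18 to 1.15) or 1.58-fold. It passed P and fold (limma P = 0.0138) but not the adjustment over all probe sets (adjusted p = 0.983), and its exact permutation p of 0.0286 was the smallest that 4 against 4 lambs can give. Without NmatNpat animal 1, the array that held neuron transcripts, the difference was 0.50 and no longer over 1.5-fold. With NmatCpat animal 4, highest in the average of the muscle markers but not in their sum, left out too, it was 0.43 and passed neither threshold.

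The dimmest CEBPD probe set did not follow the other two. It read 5.43, 6.40, 6.72 and 6.54 in NmatCpat lambs and 6.69, 6.39, 6.53 and 6.39 in NmatNpat lambs, a difference of -0.23 (95% interval -0.90 to 0.44). NmatCpat animal 1 alone lay below the NmatNpat range, and without it the difference was 0.052. Across the 8 arrays the correlation with the brightest probe set was 0.690 for the second probe set and -0.057 for the dimmest, given as a description.

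**Figure D2:**
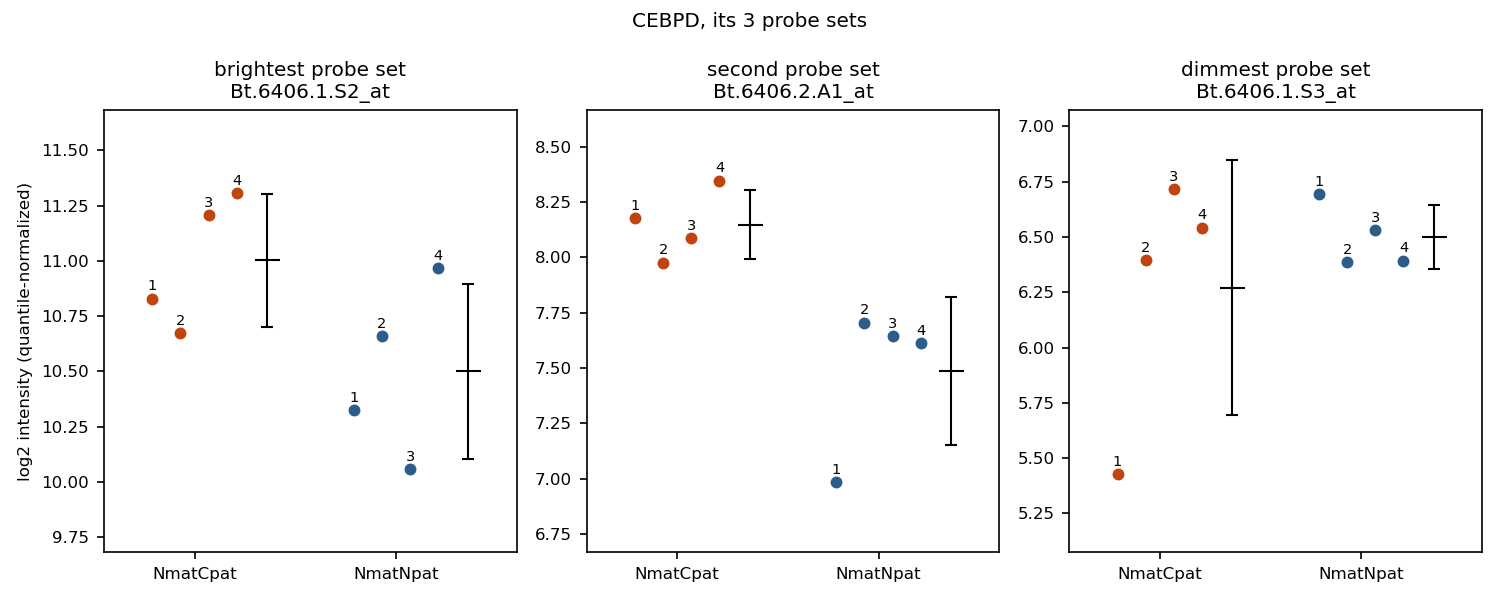
Log2 quantile-normalized intensity of CEBPD on its 3 probe sets in NmatCpat lambs (left, orange) and NmatNpat lambs (right, blue), with animal numbers and mean ± SD. The genotypes separate on the second probe set, with the NmatCpat lambs between 7.98 and 8.35 and the NmatNpat lambs between 6.98 and 7.70, and overlap on the other two.

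Genes that respond to glucocorticoid were listed because CEBPD is one of them. Of 10 listed, 8 were measured, 2 with a difference above 0 and 6 below (3 and 5 with arrays centred on their medians), none passed, and the median difference was -0.10. FKBP5, a chaperone partner of the glucocorticoid receptor, had the smallest P of the list. It read 7.47, 8.41, 7.90 and 7.96 in NmatCpat lambs and 7.56, 7.46, 7.86 and 6.98 in NmatNpat lambs, a difference of 0.47 (95% interval -0.15 to 1.09, limma, adjusted p = 0.983, exact permutation p = 0.143). The 2 genotypes overlapped, and the difference was 0.31 without NmatCpat animal 2 or without NmatNpat animal 4.

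CEBPB, the other early factor, did not separate the genotypes on either of its probe sets. The brightest read 8.55, 9.28, 9.41 and 8.56 in NmatCpat animals 1 to 4, and 8.55, 9.22, 8.58 and 8.78 in NmatNpat animals 1 to 4. NmatCpat animals 2 and 3 and NmatNpat animal 2 stood above the other 5 lambs with none between 8.78 and 9.22. The difference was 0.17 (95% interval -0.47 to 0.80, adjusted p = 0.983 by limma). It was 0.012 without NmatCpat animal 3, and 0.30 without NmatCpat animal 4 and 0.31 without NmatNpat animal 2. On the other the values were 7.34, 7.91, 8.34 and 7.55 in NmatCpat lambs and 7.24, 7.60, 7.78 and 7.66 in NmatNpat lambs, a difference of 0.22 (95% interval -0.37 to 0.80), where NmatCpat animals 2 and 3 were again the highest but NmatNpat animal 2 was not set apart.

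CEBPA, the factor that holds the mature, insulin-sensitive state together with PPARG, had a difference of nearly the size of that of CEBPD. It read 8.94, 9.39, 9.35 and 8.51 in NmatCpat animals 1 to 4, against 8.53, 8.95, 8.32 and 8.47 in NmatNpat animals 1 to 4. NmatCpat animals 2 and 3 lay above all NmatNpat lambs, while NmatCpat animal 4 lay among them. The means were 9.05 ± 0.408 in NmatCpat and 8.57 ± 0.269 in NmatNpat lambs (SD, n = 4 each), a difference of 0.48 (SE 0.25, 95% interval -0.10 to 1.06) or 1.39-fold that did not pass (limma P = 0.0929, adjusted p = 0.983, exact permutation test p = 0.143). Without NmatCpat animal 4, highest in the average of the muscle markers but not in their sum, it was 0.66 and passed P and fold. With NmatNpat animal 1 left out as well it was 0.64 and still passed. Without NmatCpat animal 2 alone it fell to 0.37 and did not pass.

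PPARG, the nuclear receptor without which fat cells do not form, was level between the genotypes. It read 12.32, 12.27, 11.99 and 11.86 in NmatCpat animals 1 to 4, against 12.32, 12.35, 12.02 and 12.01 in NmatNpat animals 1 to 4. The group means of 12.11 ± 0.221 in NmatCpat and 12.17 ± 0.182 in NmatNpat lambs (SD, n = 4 each) differed by less than the spread within either group. The 95% interval ran from -0.49 to 0.36 (limma, adjusted p = 0.990), so changes of 1.5-fold or more in either direction lay outside it. The difference of -0.06 changed sign, to 0.020, without NmatCpat animal 4, and was 0.075 with NmatNpat animal 1 out as well.

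The spread of PPARG ran along another line. Animals 1 and 2 of both genotypes read 12.27 to 12.35, and animals 3 and 4 of both read 11.86 to 12.02, with no value between. In the deposited intensities, before normalization here, the same lambs read 5118, 5039, 4013 and 3868 in NmatCpat and 4688, 5136, 4151 and 4105 in NmatNpat. Markers of macrophages, the main immune cell of fat, split the same lambs the other way. Over the 8 macrophage markers measured of 10 listed, the mean deviation from each gene's average was -0.29, -0.54, 0.61 and 0.51 in NmatCpat animals 1 to 4 and -0.77, -0.46, 0.51 and 0.43 in NmatNpat animals 1 to 4. Summed, their deposited intensities lay between 1717 and 4336 in NmatCpat lambs and between 1816 and 4115 in NmatNpat lambs (exact permutation test between genotypes, p = 0.971).

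Its members include CD14, a receptor for bacterial lipopolysaccharide, and CSF1R, the receptor of the macrophage growth factor. CD14 read 7.49, 7.79, 8.88 and 8.67 in NmatCpat lambs and 7.47, 7.62, 8.69 and 8.14 in NmatNpat lambs. CSF1R read 7.93, 7.64, 8.78 and 8.79 in NmatCpat lambs and 7.56, 7.89, 9.28 and 8.54 in NmatNpat lambs. For both genes animals 3 and 4 of either genotype were the 4 highest of the 8 lambs, as they were for 5 of the 8 markers measured, and TYROBP, C1QB and ITGAM did not split in this way. The adipocyte list moved less, with mean deviations of 0.09, 0.09, -0.19 and -0.11 in NmatCpat lambs and 0.11, -0.02, -0.01 and 0.04 in NmatNpat lambs. The split was not confined to macrophage markers. The 10 markers of stromal cells and preadipocytes, all measured, had mean deviations of -0.11, -0.20, 0.37 and -0.08 in NmatCpat lambs and -0.23, -0.10, 0.38 and -0.03 in NmatNpat lambs. These were narrowly higher in animals 3 and 4 of both genotypes, and 5 of the 10 genes were highest in those 4 lambs. The same held for 1 of 8 endothelial, 1 of 8 liver and 0 of 9 adipocyte markers. The share over all genes was not counted, so these counts are a description only. Because the lambs fall into separate sets on both measures, no correlation is given. The split was noticed after the values had been seen, the labels name no batch that matches it, and the part that macrophage or stromal content has in the PPARG level was not tested.

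**Figure D3:**
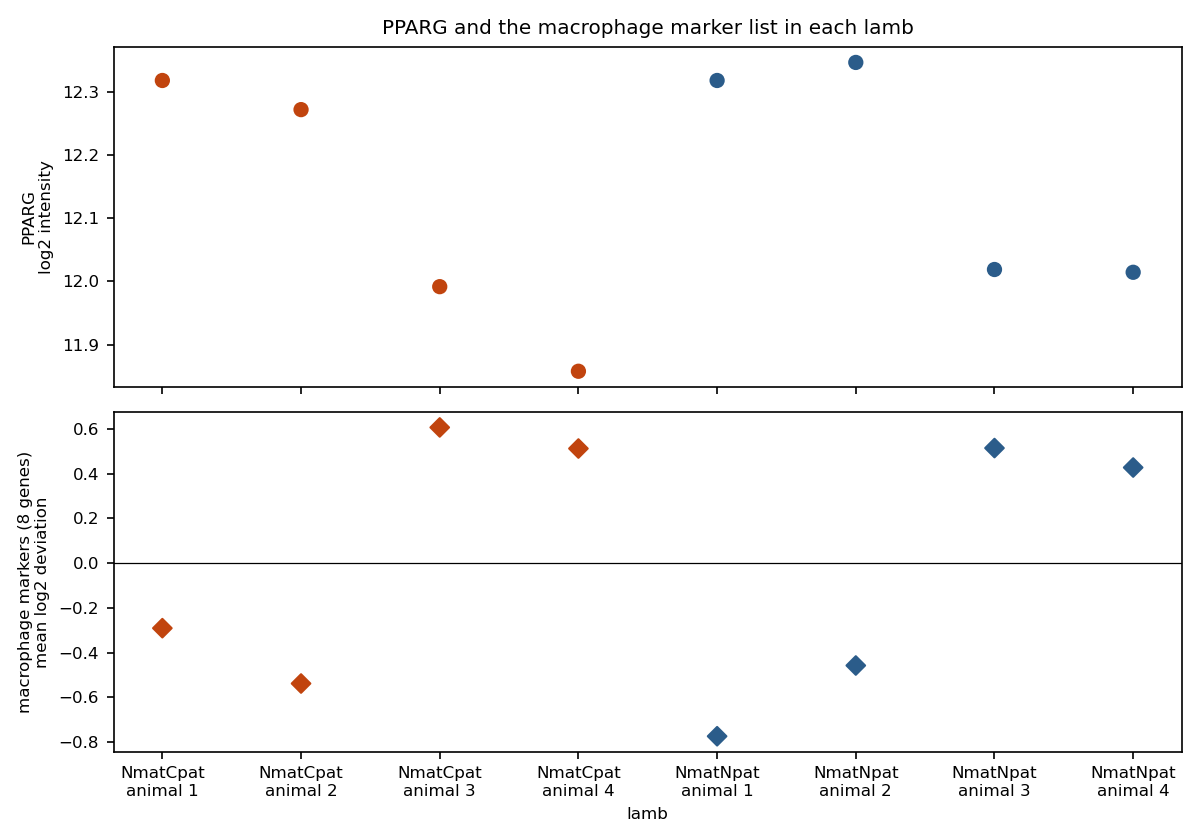
PPARG (upper panel, log2 quantile-normalized intensity) and the mean log2 deviation of 8 macrophage markers from their averages over the arrays (lower panel) in each lamb, NmatCpat in orange on the left and NmatNpat in blue on the right. In both genotypes animals 1 and 2 are high in PPARG and low in the markers, and animals 3 and 4 the reverse.

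RXRA, the partner that PPARG and NR1H3 need to bind DNA, was the member gene with the largest difference below 0. It read 6.15, 5.84, 6.77 and 6.40 in NmatCpat animals 1 to 4, and 6.99, 6.87, 6.55 and 6.25 in NmatNpat animals 1 to 4. The genotypes overlapped, with NmatCpat animal 3 above NmatNpat animals 3 and 4. The difference of -0.38 (SE 0.26, 95% interval -0.98 to 0.23) did not pass (limma, adjusted p = 0.983, exact permutation test p = 0.200). It was -0.23 without NmatCpat animal 2 and -0.54 without NmatCpat animal 3. RXRA was also the member that ran most clearly against the endothelial markers over the 8 lambs. Pearson's r was -0.787 (exact permutation p = 0.0147, adjusted p = 0.235 over 32 relations of members with cell type lists) and Spearman's rho -0.881 (exact permutation p = 0.00724, adjusted p = 0.232). Without the 2 lambs farthest from the median r was -0.648, and within genotypes it was -0.777, so the relation kept its sign but did not pass the adjustment. NmatNpat animal 1, lowest on the endothelial list largely through the dim marker KDR, was the highest of the 8 lambs in RXRA. Without this lamb r was -0.755 and rho -0.821.

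NR1H3, the liver X receptor alpha that senses oxysterols, lay close to level. Its brightest probe set read 9.33, 8.88, 8.92 and 9.10 in NmatCpat lambs and 9.05, 9.22, 8.71 and 8.76 in NmatNpat lambs, a difference of 0.12 (95% interval -0.33 to 0.57, adjusted p = 0.983 by limma). On its other probe set NmatCpat animals 1, 2 and 4 read 8.01, 8.03 and 8.19 and animal 3 read 7.08, while the NmatNpat lambs stayed between 7.52 and 7.67. The difference there was 0.21, with the genotypes overlapping through that 1 lamb, and it was 0.46 without it and 0.088 without NmatCpat animal 4. On the brightest probe set the difference was 0.029 without NmatCpat animal 1 and 0.21 without NmatNpat animal 2.

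The partners and coregulators of these receptors held the only pathway genes with a P of at most 0.05. Of 24 listed, 14 were measured, 8 with a difference above 0 and 6 below, and their median was 0.04. NCOR1, a corepressor that keeps unliganded nuclear receptors silent, read 9.82, 9.81, 9.59 and 9.68 in NmatCpat lambs and 9.30, 9.58, 9.25 and 8.92 in NmatNpat lambs. The genotypes did not overlap, with the lowest NmatCpat lamb at 9.59 and the highest NmatNpat lamb at 9.58, and the difference was 0.46 (95% interval 0.03 to 0.89, limma P = 0.0375, adjusted p = 0.983, exact permutation p = 0.0286). Its next 3 probe sets by level gave 0.05, 0.06 and -0.08, and the difference of the mean over all 5 was 0.16.

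NR1H2, the liver X receptor beta and the more widely expressed relative of NR1H3, went the other way. It read 8.25, 8.14, 7.96 and 7.85 in NmatCpat lambs and 8.34, 8.54, 8.37 and 8.46 in NmatNpat lambs. All 4 NmatCpat values lay below all 4 NmatNpat values, and the difference was -0.38 (95% interval -0.75 to -0.01, limma P = 0.0471, adjusted p = 0.983, exact permutation p = 0.0286). Neither gene reached a 1.5-fold change. Of the 92 pathway genes measured, 2 had a P of at most 0.05, against 3.79% of all genes, and 3 had no overlap between genotypes, against 2.84%.

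SREBF1, the sterol response element binding protein that raises fatty acid synthesis genes, was read by 4 probe sets that did not move together. The brightest read 9.01, 9.72, 9.57 and 8.70 in NmatCpat animals 1 to 4, and 8.94, 8.69, 9.00 and 9.28 in NmatNpat animals 1 to 4. NmatCpat animals 2 and 3 stood above all NmatNpat lambs and NmatCpat animals 1 and 4 lay among them. The difference was 0.27 (95% interval -0.35 to 0.90, adjusted p = 0.983 by limma, exact permutation p = 0.286). It was 0.46 without NmatCpat animal 4, 0.11 without NmatCpat animal 2 and 0.014 as the mean of all 4 probe sets. The other three gave 0.48, -0.18 and -0.52, none of which passed, the last on a dim probe set with a mean level of 2.34. Their correlations with the brightest were 0.531, -0.013 and 0.352.

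MLXIPL, the glucose-responsive counterpart, varied least among the members on its brightest probe set. Its brightest probe set read 6.63, 6.84, 6.92 and 6.49 in NmatCpat lambs and 6.72, 6.83, 6.80 and 6.79 in NmatNpat lambs, a difference of -0.07 (95% interval -0.44 to 0.30, adjusted p = 0.988 by limma). It changed sign, to 0.012, without NmatCpat animal 4, and was -0.30 by the mean of both probe sets. Its second probe set gave -0.54, with a 95% interval from -1.88 to 0.80, because NmatCpat animal 3 read 2.77 and the other lambs 4.49 to 5.58. Without that lamb the second probe set gave 0.043.

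**Figure D4:**
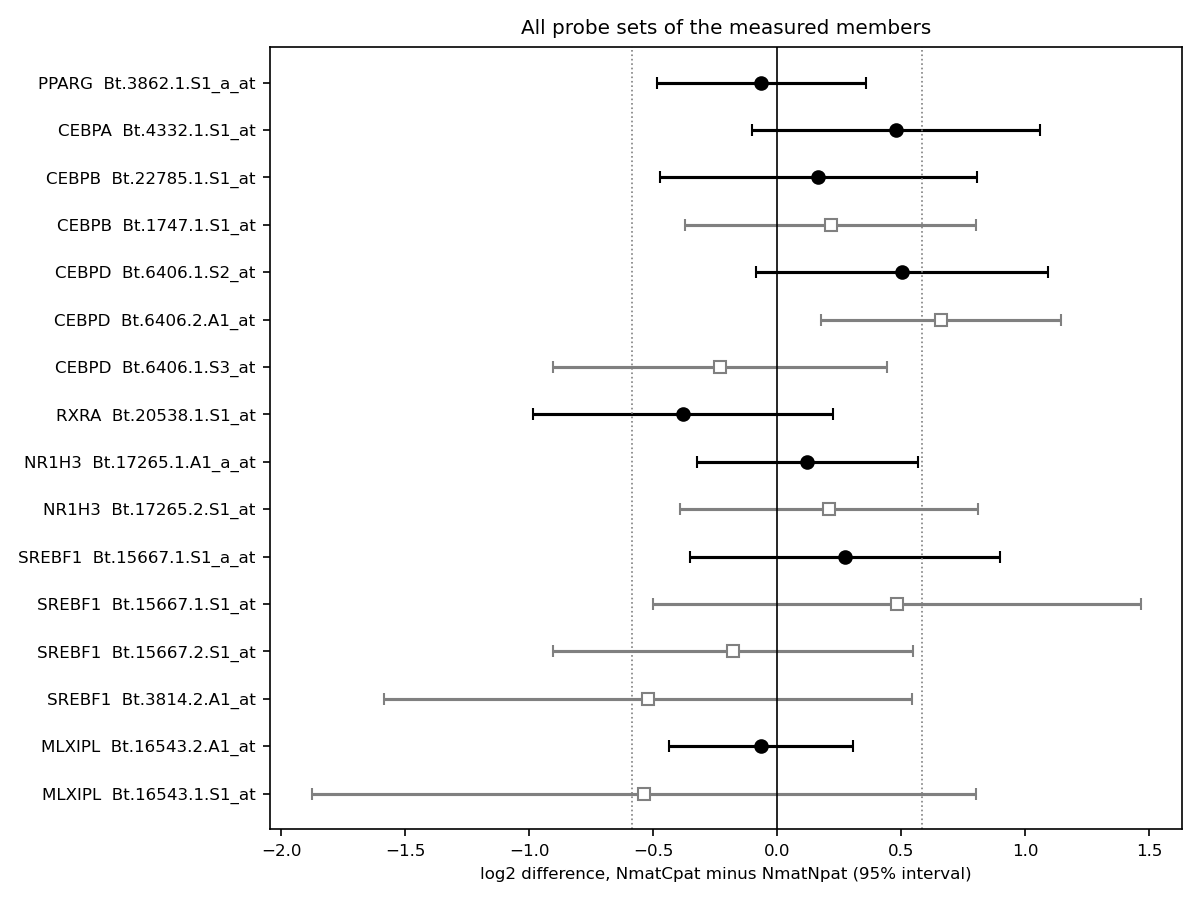
Log2 difference, NmatCpat minus NmatNpat, with its 95% interval for all 16 probe sets of the 8 measured genes. Filled circles are the brightest probe set of a gene, open squares the others, and dotted lines mark a 1.5-fold change. Probe sets of a gene run from bright to dim. Only the interval of the second CEBPD probe set, 0.18 to 1.15, leaves out 0.

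Several members had the same 3 lambs highest, in part by narrow margins. NmatCpat animals 2 and 3 and NmatNpat animal 2 were the 3 highest of the 8 lambs for CEBPB, CEBPA and MLXIPL on their brightest probe sets. For CEBPA, however, NmatNpat animal 2, at 8.95, was hardly above NmatCpat animal 1, at 8.94. For MLXIPL it was at 6.83, hardly above NmatNpat animals 3 and 4, at 6.80 and 6.79. SREBF1 was highest in the same 2 NmatCpat lambs but lowest in NmatNpat animal 2. Of the 28 pairs of member genes, 2 had an exact permutation p of at most 0.05 for Pearson's r, CEBPA with CEBPB and CEBPB with MLXIPL, and neither passed after adjustment over the pairs (smallest adjusted p = 0.310). By Spearman's rho the exact permutation p was 0.197 for CEBPA with CEBPB and 0.00456 for CEBPB with MLXIPL, and the smallest adjusted p was 0.128. No pooled correlation of CEBPB with another member is given, because its 3 high lambs stand apart from the other 5.

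The genes these factors are known to regulate were then counted. Of 23 listed targets of PPARG and CEBPA, 21 were measured, 14 with a difference above 0 and 7 below (11 and 10 after cyclic loess), with a median of 0.03, and none passed. PCK1, which makes the glycerol backbone of triglyceride in fat, had the smallest P of the list. It read 9.53, 10.03, 10.45 and 10.32 in NmatCpat lambs and 9.18, 10.10, 9.79 and 8.47 in NmatNpat lambs, a difference of 0.70 (95% interval -0.19 to 1.59, limma, adjusted p = 0.983, exact permutation p = 0.171). The genotypes overlapped through NmatNpat animals 2 and 3. The difference was 0.39 without NmatNpat animal 4, and 0.93 and past P and fold without NmatNpat animal 2. ADIPOQ, FABP4 and CD36, the fatty acid transporter, stayed near 0, with differences of 0.14, 0.03 and 0.09. These genes lie near the top of the scale, where FABP5 of the same list read 14.09 in every lamb but NmatNpat animal 3. Whether the top of the scale limits their differences was not tested. LPL, the lipase that takes fatty acids from circulating lipoproteins, gave -0.05. Some other hormone and carrier genes of the list, on dim probe sets, differed more. RETN and LEP, both hormones, gave 0.80 and -0.26, and SLC2A4, a glucose transporter, gave 0.77. Their mean levels were 4.52, 4.92 and 3.93, and none passed. Without NmatCpat animal 1 RETN gave 1.32 and passed P and fold.

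Targets of SREBF1 and MLXIPL held the highest median of the pathway lists. Of 17 listed, 13 were measured, 10 with a difference above 0 and 3 below, with a median of 0.21, and none passed. GPAM, the acyltransferase that starts glycerolipid synthesis, read 6.87, 7.78, 8.44 and 7.88 in NmatCpat lambs and 7.17, 6.41, 7.30 and 7.12 in NmatNpat lambs. NmatCpat animals 2, 3 and 4 lay above every NmatNpat lamb and animal 1 below 3 of them. The difference was 0.74 (95% interval -0.09 to 1.57, limma P = 0.0739, adjusted p = 0.983, exact permutation p = 0.114), and without NmatCpat animal 1 it was 1.04 and passed P and fold. Without NmatCpat animal 3 it was 0.51 and did not pass.

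The enzymes of fatty acid synthesis itself gave wide intervals. ACACA, acetyl-CoA carboxylase, had a difference of 0.84 (95% interval -0.22 to 1.91), FASN, fatty acid synthase, one of 0.52 (95% interval -0.30 to 1.33), and SCD, the stearoyl-CoA desaturase, one of 0.12 (95% interval -0.42 to 0.66). For ACACA, NmatNpat animal 1 read 4.30 and the other NmatNpat lambs 5.72 to 6.48, and without that lamb the difference was 0.39. ACACA passed without NmatNpat animal 3, at 1.11, and when the mean of its 2 probe sets was taken, at 0.86. FASN gave 0.24 without NmatCpat animal 1, and SCD -0.0010 without NmatCpat animal 4 and 0.31 without NmatCpat animal 3. ELOVL5, an elongase of polyunsaturated fatty acids, was the gene of this list whose genotypes did not overlap, at 10.24, 10.49, 10.40 and 10.50 in NmatCpat lambs and 10.69, 10.62, 10.64 and 10.70 in NmatNpat lambs. Its difference was small, at -0.25 (95% interval -0.58 to 0.08, limma P = 0.120, exact permutation p = 0.0286).

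The proteins that hold SREBP and ChREBP in check or release them were all measured, 10 of 10, with 3 differences above 0 and 7 below (4 and 6 with arrays centred on their medians), a median of -0.07 and none past the thresholds. INSIG1, which retains SREBP in the endoplasmic reticulum and is itself an SREBP target, read 11.14, 10.22, 11.52 and 11.77 in NmatCpat lambs and 11.50, 11.69, 11.91 and 12.29 in NmatNpat lambs. NmatCpat animal 2 lay far below the other 7 lambs. The difference was -0.68 (95% interval -1.51 to 0.14, limma P = 0.0919, adjusted p = 0.983, exact permutation p = 0.143). It was -0.37 without NmatCpat animal 2, and it passed P and fold without NmatCpat animal 4, at -0.88.

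Of 11 listed targets of NR1H3, 6 were measured, 2 with a difference above 0 and 4 below, with a median of -0.12. These counts and the median include NR1H2, a relative of NR1H3 that is also counted among the partners above, and NR1H2 had the smallest P of the list. The other genes measured gave 0.28 for MYLIP, 0.37 for LPCAT3, -0.65 for APOE, -0.19 for PLTP and -0.05 for LPL. LPCAT3, which builds polyunsaturated phospholipids, read 8.60, 8.43, 8.76 and 8.88 in NmatCpat lambs and 8.45, 8.32, 8.20 and 8.23 in NmatNpat lambs, a difference of 0.37 (95% interval -0.01 to 0.75, limma P = 0.0571, exact permutation p = 0.0571). Only NmatCpat animal 2 overlapped the NmatNpat lambs. By the mean of its probe sets the difference was 0.14. LPCAT3 was chosen after its values were seen.

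Of 20 genes listed under the heading of other factors that promote adipogenesis, 14 were measured, 7 with a difference above 0 and 7 below. Their median was 0.01, or -0.01 after cyclic loess. The heading is loose, and the list is a mixed one of factors linked to adipogenesis. Whether each gene promotes or restrains it was not tested, so the counts and the median carry no direction of function. BHLHE40, a basic helix-loop-helix factor, had the smallest P of the list, at 7.45, 6.89, 7.69 and 7.27 in NmatCpat lambs and 7.84, 8.32, 7.73 and 7.27 in NmatNpat lambs. Its difference was -0.46 (95% interval -1.10 to 0.17, limma P = 0.129, exact permutation p = 0.143), with NmatNpat animal 4 at the level of the NmatCpat lambs. It was -0.29 without NmatNpat animal 2, and -0.63 and past P and fold without NmatNpat animal 4. NR3C1, the glucocorticoid receptor, and KLF15, a Krüppel-like factor that raises PPARG, gave 0.22 and -0.01.

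Of the factors that restrain adipogenesis, 8 of 18 listed were measured, 3 with a difference above 0 and 5 below, with a median of -0.08. DDIT3, also called CHOP, a C/EBP relative that blocks C/EBP binding, read 7.20, 6.79, 7.09 and 7.05 in NmatCpat lambs and 7.36, 7.51, 7.15 and 7.40 in NmatNpat lambs. Only NmatCpat animal 1 and NmatNpat animal 3 overlapped, and the difference of -0.32 (95% interval -0.71 to 0.06) did not pass (limma P = 0.0881, adjusted p = 0.983, exact permutation test p = 0.0571).

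**Figure D5:**
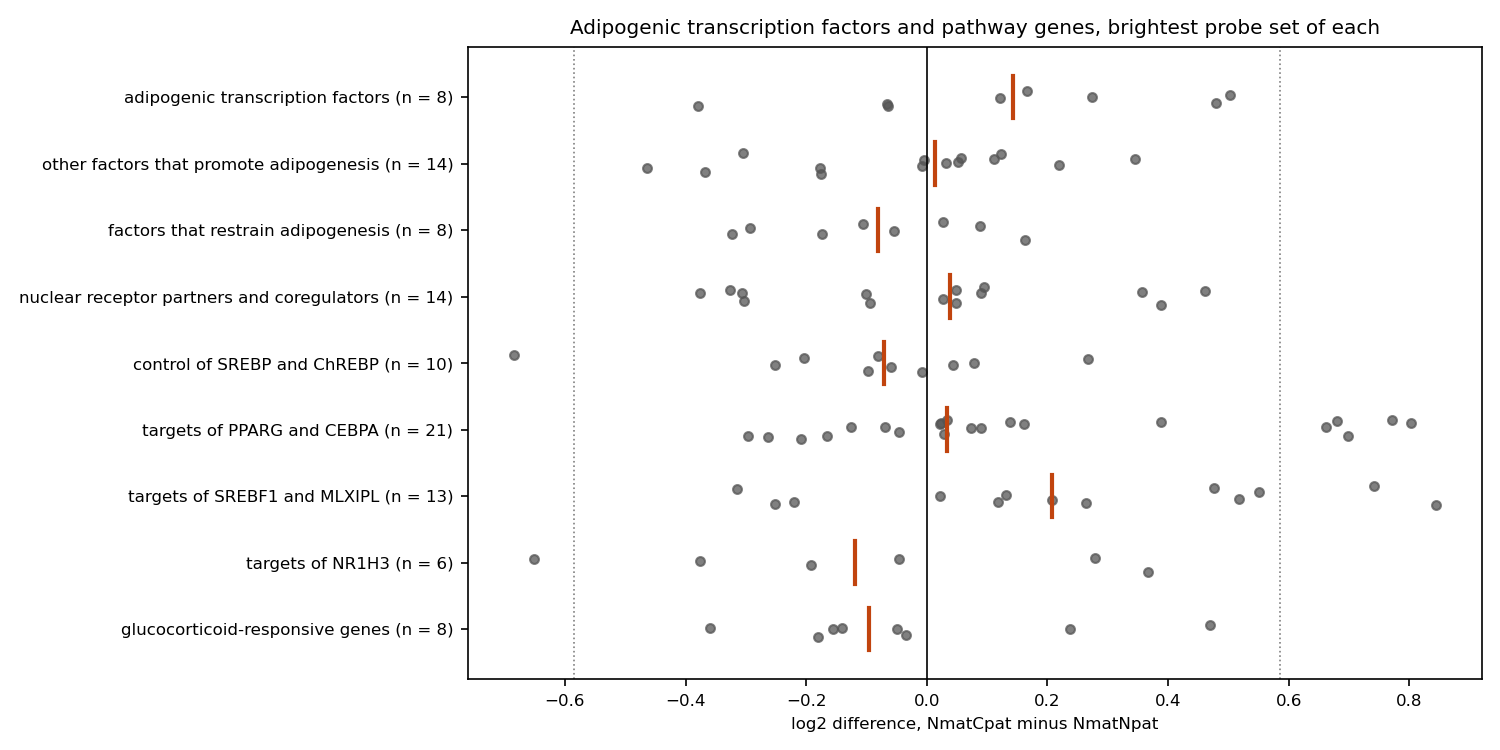
Log2 difference, NmatCpat minus NmatNpat, of each measured gene on its brightest probe set, for the 8 adipogenic transcription factors and the pathway lists. Each point is a gene, the orange bar is the median of the list, and dotted lines mark a 1.5-fold change. List medians lie between -0.12 and 0.21, and no gene passed P and fold.

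Over all 92 pathway genes measured of 131 listed, 49 had a difference above 0, the median was 0.03 and none passed both thresholds, against 2.91% of all genes. Over the 146 probe sets of these genes, 1 passed in each direction, against 2.04% of all probe sets higher and 1.88% lower, both on dimmer probe sets and both singled out after their values were seen. LIPE, hormone-sensitive lipase, was lower on the dimmest of its 4 probe sets, at 5.23, 4.52, 5.39 and 5.32 in NmatCpat lambs and 5.86, 5.76, 6.07 and 5.69 in NmatNpat lambs, a difference of -0.73 (limma, adjusted p = 0.983). On its brightest probe set LIPE differed by -0.17 (95% interval -0.57 to 0.24), and the other two gave 0.11 and -0.04. ERRFI1, a feedback inhibitor of the EGF receptor, was higher by 1.29 on a dim probe set with a mean level of 4.29, and differed by -0.05 on its brightest and by 0.09 and -0.89 on the other two.

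The genes whose pattern over the 8 arrays was most like that of each member were listed by Pearson's r among 6325 genes above the median level, as a description with no test, since the 8 arrays are few and the candidates many. PPARG was most like ZDHHC13, with r of 0.989, and YWHAE, with 0.971, and without NmatNpat animal 1 these were 0.988 and 0.972. CEBPA was most like TBC1D4, a substrate of insulin signalling in glucose uptake, with r of 0.947, and ASGR1, with 0.922. CEBPB was most like CCDC47, at 0.958, and MAPK12, at 0.916. For PPARG and for CEBPB the lambs fall into separate sets, so a high r with either can reflect those sets alone.

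CEBPD was most like VPS37A, at 0.976, and SEC61B, at 0.967, and RXRA most like MRPL14, at 0.959, and FXYD2, at 0.922. NR1H3 was most like FCF1 and PARP1, both at 0.953. SREBF1 was most like NECTIN2, at 0.943, and EEF2K, at 0.932, and MLXIPL like USP38, at 0.926, and MAN2A2, at 0.912. No member was among the 2 nearest genes of another, because members were left out of the candidates.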

How the data were processed

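Perirenal adipose RNA of 8 lambs was hybridised to the Affymetrix Bovine Genome array. The authors processed the scans with MAS5, for which no version was found in the sources used. The deposited intensity values are linear, with a lowest value of 0.1. The paper's methods name a background correction and a quantile normalization, but quantiles differed between the deposited columns, so log2 values were quantile-normalized here. Of 24128 probe sets, 112 controls were left out. limma 3.58.1 in R 4.3.3 fitted NmatCpat minus NmatNpat without covariates (lmFit, eBayes, Benjamini-Hochberg over 24016 probe sets). P of at most 0.05 and fold over 1.5 follow the study, whose text does not name the statistic. Intervals are limma's at 95%. Exact permutation tests were two-sided over the 70 arrangements of the lambs. Symbols came from the platform annotation: 13292 probe sets had 1 symbol, 86 several and 10638 none. Members and lists were chosen with earlier results of these data known. The genes named were all members, the gene with the smallest P in each pathway list and the 2 genes most like each member. Any other gene was picked with its values in view. Alternatives were other variance models, array weights, median centring, cyclic loess, an offset of 16, filters on dim or cross-binding probe sets, a block on animal number, lambs left out, gene means and other thresholds. Scripts were tested on simulated data. No arrays shared more than 0.34% of their values. The 8 arrays limit the precision of every value.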

Additional observations from a re-analysis of the deposited data

Results flagged for a closer look

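In 58 groups of 4 lambs (members and named pathway genes in either genotype), 3 had a lamb whose gap to the nearest other, as a share of the range of the group, exceeded Dixon's critical value at the 95% level, and chance alone flags about 1 in 20. For CEBPD on the second probe set, which separated the genotypes, NmatNpat animal 1 read 6.98 and the other NmatNpat lambs 7.61 to 7.70. For NR1H3 on the dimmer of its probe sets, NmatCpat animal 3 read 7.08 and the other NmatCpat lambs 8.01 to 8.19. For SREBF1 on the second probe set by level, NmatNpat animal 2 read 5.14 and the other NmatNpat lambs 6.64 to 6.78. All 3 lay below their groups.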

How the results depend on the processing

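Probe sets past P and fold numbered 943, and in other fits 626 in a linear model without moderation, 244 among probe sets above the median level and 210 at a P of at most 0.01, and 979 to 1052 with 1 lamb left out. An adjusted p under 0.05 was reached by 1 probe set each with a trended robust variance, an offset of 16 and only probe sets above the median level, and by 0 to 2 with 1 lamb left out (2 without NmatNpat animal 2). Member genes past P and fold were 0 to 1 with 1 lamb left out (CEBPA without NmatCpat animal 4, CEBPD without NmatNpat animal 4). With both NmatNpat animal 1 and NmatCpat animal 4 out, 1 passed (CEBPA). Member probe sets past P and fold were 0 to 2 with 1 lamb left out, 0 without NmatNpat animal 1 and 2 without NmatCpat animal 4 or NmatNpat animal 4, and 0 at a P of at most 0.01. The lowest adjusted p of any member over 19 alternatives was 0.912.

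Pathway genes past P and fold were 3 with a trended robust variance (GPAM, INSIG1, PCK1), 1 among probe sets above the median level (GPAM), 1 by gene means (ACACA), 1 with both NmatNpat animal 1 and NmatCpat animal 4 out (INSIG1), 2 at P alone (NCOR1, NR1H2) and 0 to 3 with 1 lamb left out. The labels do not say that the animal numbers pair the lambs. Correlations of deviations between lambs of the same number were -0.013 to 0.048, and 3 of 4 numbers correlated best with their own. What the numbers stand for was not tested. With the number as a replicate block 2 pathway genes passed (INSIG1, RETN), no member gene, and 1124 probe sets in all.

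Directions reversed for PPARG, at 0.012 with median-centred arrays, 0.075 with both NmatNpat animal 1 and NmatCpat animal 4 out and -0.13 to 0.020 with 1 lamb left out. With 1 lamb left out, the dimmest CEBPD probe set ran from -0.38 to 0.052, the third of SREBF1 from -0.42 to 0.10, the dimmer of MLXIPL from -0.84 to 0.043 its brightest from -0.13 to 0.012 and SCD from -0.0010 to 0.31. The cause was not tested. Dim probe sets are measured less well: the median residual SD was 1.07 log2 units in the lowest quartile of level and 0.233 in the highest.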
